A study of Mus musculus with 7 samples.

Results

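The genes described here are 44 genes of the DNA replication machinery, measured in C2C12 cells, an established line of mouse myoblasts, with or without depletion of the long non-coding RNA lnc-SMaRT. They were taken from a list of gene symbols, and each was found as 1 of the 11642 rows of the deposited expression table. All 44 had a mean above the minimum for testing. Total RNA was sequenced from 2 cell populations transfected with scramble siRNA (si-SCR) and 2 transfected with siRNA #1 against lnc-SMaRT (si-SMaRT), all collected on day 2 after the switch from growth medium to low-serum differentiation medium. The control cells therefore also carried an siRNA and were also differentiating, and a single siRNA sequence in 1 cell line stands for the depletion. The p-values given here measure the spread between these 2 samples of each group. In 3 further libraries, the input of an RNA pull-down, the RNA recovered with probes against lnc-SMaRT and that recovered with control probes against LacZ were sequenced once each.

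Copying the genome once per cell cycle begins in G1, when the origin recognition complex, Cdc6 and Cdt1 load the MCM helicase, a ring of the subunits Mcm2 to Mcm7, onto origins, a step called licensing. In S phase kinases, Cdc45 and the GINS complex turn the loaded ring into an active helicase, and polymerases alpha, delta and epsilon copy the strands with the help of the sliding clamp PCNA, its loader RFC and the single-strand binding protein RPA. E2F transcription factors drive many of these genes in proliferating cells. Myoblasts leave the cell cycle when they differentiate into myotubes, and the replication genes are known to be turned down as they do so.

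In si-SMaRT cells the replication genes lay mostly above their control levels, by small amounts. Of the 44 genes, 37 had a log2 fold change above 0, where 52.3% of all 11086 genes tested did, and their median log2 fold change was 0.26, against 0.02 for all genes. Their median was 0.17 without si-SCR 2, and 25 of the 37 stayed above 0 with any 1 of the 4 samples left out. The highest log2 fold changes belonged to the licensing genes Orc1, Cdc6 and Mcm4, and the lowest to Rfc2, a subunit of the clamp loader. None of the 44 genes passed an adjusted p of 0.05 in the limma fit, where 0.505% of all genes did, and the lowest adjusted p among them was 0.316, for Cdc6. At an unadjusted p under 0.05, the count was 4 of the 44 (Orc1, Cdc6, Mcm4 and Mcm6), where it was 9.09% of all genes. Both si-SMaRT samples lay above both si-SCR samples for 21 members, as they did for 20.2% of all genes, and below them for 2 members, Rfc2 and Rpa2, as they did for 20.4% of all genes. The samples of the groups overlapped for the remaining 21.

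The effective library sizes were 12654120 and 14132628 reads in si-SCR 1 and 2 and 11291255 and 14312935 reads in si-SMaRT 1 and 2. Lnc-SMaRT had an RPKM (reads normalized to gene length and library size) of 19.1 and 15.9 in the si-SCR samples and of 2.88 and 3.65 in the si-SMaRT samples. Its log2 fold change was -2.39 (SE 0.28, adjusted p = 0.000882, limma). The muscle marker list summed to an RPKM of 8233 and 8611 in the si-SCR samples and of 6201 and 4129 in the si-SMaRT samples, and 7 of its 8 genes had a log2 fold change below 0, with none past the threshold (Mef2c and Ckm passed, both lower, with the GC trend removed). The lowest of the 8 had a mean of 5.10 RPKM in the si-SCR samples. For markers of undifferentiated myoblasts, 6 of 7 were tested and the sums were 75.9 and 69.5 against 65.4 and 79.8. Id3, an inhibitor of myogenic factors, passed with a log2 fold change of 1.60 (SE 0.30, adjusted p = 0.0232, limma). It was the only 1 of the 6 above 0. The other 5 lay below 0, and the median of the list was -0.03. Of 9 markers of other cell types, only Cd68 had a row, at 0.788 to 1.13 RPKM over the 4 samples, and Pax7 of the myoblast list had none. The part of cell composition in the replication results was not tested, and in these bulk samples more cycling cells and more of these RNAs per cell cannot be told apart.

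The sequence below is the siRNA that defines the si-SMaRT group, as the study lists it. After it stand the 250 bases before the RefSeq start of 3 licensing genes, shown because their promoters hold the E2F core described further on. The windows are chr4:108579204-108579453 (plus strand) for Orc1, chr8:75109259-75109508 (plus strand) for Mcm5 and chr1:128359706-128359955 (minus strand) for Mcm6, in GRCm38.p6. Capitals mark the 8 bases TTTCGCGC or TTTGGCGC on either strand, and overlapping matches form 1 longer run. In GENCODE M21 the Orc1 gene begins slightly before the RefSeq start. The end of the Orc1 window, with the marked core, therefore lies inside the gene there.
siRNA #1: gagaagcagaacaaacagaua
Orc1: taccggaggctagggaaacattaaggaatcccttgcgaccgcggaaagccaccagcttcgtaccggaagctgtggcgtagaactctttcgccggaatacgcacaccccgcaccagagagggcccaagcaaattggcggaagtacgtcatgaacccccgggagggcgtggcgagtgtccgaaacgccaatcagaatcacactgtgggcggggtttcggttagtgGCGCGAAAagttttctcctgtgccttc
Mcm5: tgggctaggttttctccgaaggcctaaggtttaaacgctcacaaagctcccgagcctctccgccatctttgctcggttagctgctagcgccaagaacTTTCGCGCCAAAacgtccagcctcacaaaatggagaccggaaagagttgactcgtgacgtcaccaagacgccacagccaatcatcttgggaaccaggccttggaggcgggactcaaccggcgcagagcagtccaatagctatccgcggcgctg
Mcm6: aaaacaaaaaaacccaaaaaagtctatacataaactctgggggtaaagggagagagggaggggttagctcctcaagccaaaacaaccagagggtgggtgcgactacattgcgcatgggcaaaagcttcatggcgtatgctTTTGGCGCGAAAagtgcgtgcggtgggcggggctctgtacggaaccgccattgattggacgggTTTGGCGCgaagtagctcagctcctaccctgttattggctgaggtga

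In control cells the replication genes were expressed at middling levels. The median of their mean RPKM over the si-SCR samples was 7.004, against 6.91 over all rows, from which the authors had removed low genes. The highest levels were those of Rrm1, the large subunit of ribonucleotide reductase, at 56.6 RPKM, of Pcna at 51.0 RPKM and of Rrm2, the small subunit of the reductase, at 40.5 RPKM. The lowest were those of Orc1 at 0.981 RPKM, Mcm10 at 1.46 RPKM and Pold1, the catalytic subunit of polymerase delta, at 1.95 RPKM. Orc1 also rested on the fewest reads, 55 and 35 in si-SCR 1 and 2 and 64 and 95 in si-SMaRT 1 and 2, so that it carried the largest counting error. Rrm1, with the most, had at least 3155 and 2873 in the si-SCR samples. The sum over the 44 genes was 532 and 479 RPKM in the si-SCR samples and 574 and 632 RPKM in the si-SMaRT samples, both above the controls.

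**Figure D1:**
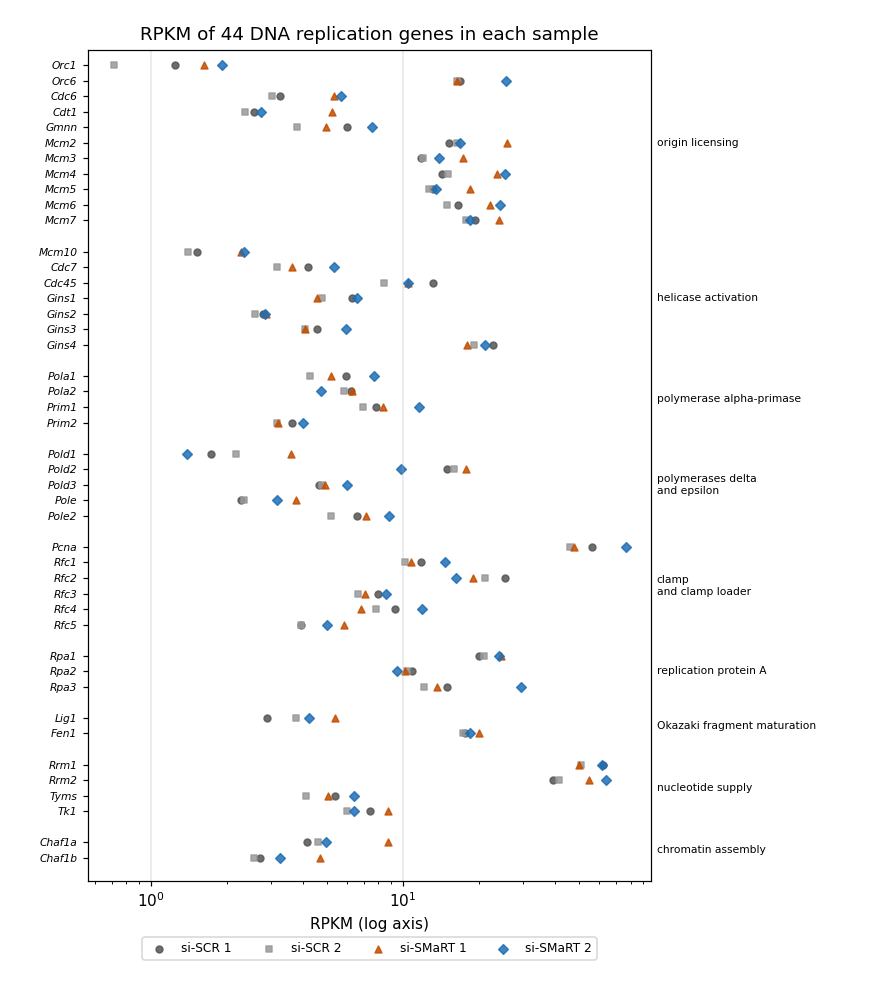
RPKM of the 44 DNA replication genes on a log axis, with 1 point for each of the 4 samples and the genes grouped by role. Levels run from Orc1, at 0.712 to 1.91 RPKM, to Pcna, Rrm1 and Rrm2, and for most genes the 4 samples lie close together beside the differences between genes.

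Within complexes, RPKM levels were close together in the MCM ring and far apart in GINS, polymerase delta and the clamp loader. The ratios depend on the annotated length by which RPKM divides, and the length of the transcripts present was not measured. Between the 6 subunits Mcm2 to Mcm7, the highest RPKM was 1.63 and 1.49 times the lowest in the si-SCR samples and 1.496 and 1.88 times in the si-SMaRT samples. In the GINS complex, Gins4 had 22.8, 19.1, 17.9 and 21.2 RPKM in si-SCR 1, si-SCR 2, si-SMaRT 1 and si-SMaRT 2, which was 6.23 to 8.22 times the RPKM of Gins2. Pold2, an accessory subunit of polymerase delta, lay 4.94 to 8.62 times above Pold1. In the clamp loader, Rfc2 lay 6.42 and 5.38 times above Rfc5 in the si-SCR samples and 3.24 and 3.24 times above it in the si-SMaRT samples, a narrower gap in both. Rrm1 exceeded Rrm2 by 1.58 and 1.22 times in the si-SCR samples, whereas Rrm2 exceeded Rrm1 by 1.09 and 1.04 times in the si-SMaRT samples.

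All 11 licensing genes among the 44 had a log2 fold change above 0, where 52.3% of all genes did, with a median of 0.41. In 8 of them both si-SMaRT samples lay above both controls, as they did for 20.2% of all genes. Orc1, the largest subunit of the origin recognition complex, had 1.25 and 0.712 RPKM in the si-SCR samples and 1.63 and 1.91 RPKM in the si-SMaRT samples. The groups did not overlap, and the log2 fold change was 0.83 (SE 0.34, adjusted p = 0.432, limma), the highest of the 44. Cdc6, an ATPase that brings the helicase to origins, had 3.26 and 3.02 RPKM in the si-SCR samples and 5.35 and 5.67 RPKM in the si-SMaRT samples. Here the replicates of each group lay close together, and the log2 fold change was 0.79 (SE 0.28, adjusted p = 0.316, limma), with a 95% interval of 0.20 to 1.38. Cdt1, which carries the helicase to origins together with Cdc6, had 2.56 and 2.36 RPKM in the si-SCR samples and 5.22 and 2.74 RPKM in the si-SMaRT samples. Both si-SMaRT values lay above the controls, but most of the difference came from si-SMaRT 1, and the log2 fold change was 0.60 (SE 0.33, adjusted p = 0.609, limma). Gmnn encodes geminin, the inhibitor of Cdt1, and its 5.99 and 3.82 RPKM in the si-SCR samples overlapped with 4.96 and 7.54 RPKM in the si-SMaRT samples. For Orc6, a small subunit of the recognition complex, the values were 16.8 and 16.4 against 16.4 and 25.6 RPKM, and only si-SMaRT 2 stood apart. Orc2, Orc3, Orc4 and Orc5, further subunits of the recognition complex, were not among the 44 genes. Their log2 fold changes were 0.27, 0.12, 0.23 and 0.09, and the groups overlapped for each. With the GC trend removed, as described further on, these were 0.15, -0.06, 0.003 and -0.07.

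The 6 genes of the MCM ring, Mcm2 to Mcm7, all had a log2 fold change above 0, where 52.3% of all genes did, with a median of 0.39. In 5 of them both si-SMaRT samples lay above both controls, as they did for 20.2% of all genes. Mcm4 had the largest difference, with 14.4 and 15.1 RPKM in the si-SCR samples and 23.7 and 25.4 RPKM in the si-SMaRT samples. Its replicates were close, and the log2 fold change was 0.73 (SE 0.26, adjusted p = 0.319, limma). Mcm6 had 16.5 and 15.01 RPKM against 22.2 and 24.2 RPKM (log2 fold change 0.56, SE 0.26, adjusted p = 0.547, limma). In the other 4 genes si-SMaRT 1 lay well above the controls and si-SMaRT 2 close to them. Mcm2 had 15.2 and 16.4 RPKM against 26.0 and 16.9 RPKM (log2 fold change 0.41, SE 0.28, adjusted p = 0.733, limma). Mcm3 had 11.8 and 11.98 RPKM against 17.4 and 13.9 RPKM (log2 fold change 0.38, SE 0.27, adjusted p = 0.735, limma). Mcm5 had 13.2 and 12.7 RPKM against 18.4 and 13.5 RPKM (log2 fold change 0.28, SE 0.27, adjusted p = 0.836, limma). Mcm7, whose row is joined with the microRNA genes Mir25 and Mir93 that lie within it, had 19.2 and 17.9 RPKM against 24.0 and 18.4 RPKM. Its groups overlapped, and the log2 fold change was 0.18 (SE 0.27, adjusted p = 0.898, limma).

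**Figure D2:**
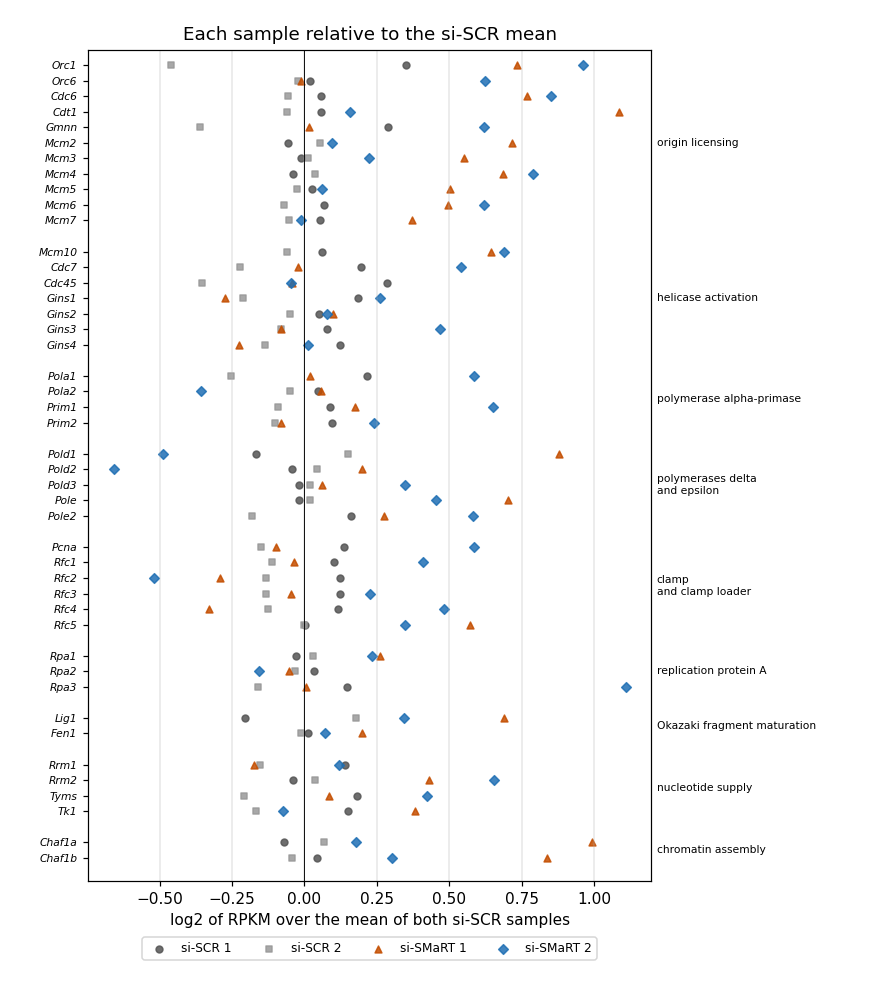
Each of the 4 samples as log2 of its RPKM over the mean of the si-SCR samples, for the 44 genes by role. Both si-SMaRT samples lie to the right of both controls for 21 genes, as they do for 20.2% of all genes. Among the 21 are 8 of 11 licensing genes and both chromatin assembly genes. The si-SMaRT samples lie far apart for genes such as Cdt1, Pold1 and Rpa3.

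Genes that turn the loaded ring into a helicase differed less. The median log2 fold change of these 7 genes was 0.09, and the groups overlapped for 5 of them. Mcm10, which joins the helicase as it starts to move, had 1.52 and 1.40 RPKM in the si-SCR samples and 2.28 and 2.35 RPKM in the si-SMaRT samples. It was the one gene of this role with a clear gap between the groups (log2 fold change 0.63, SE 0.30, adjusted p = 0.556, limma). Cdc45, a core part of the active helicase, had 13.2 and 8.45 RPKM against 10.5 and 10.5 RPKM, so that both si-SMaRT values lay between the controls. Cdc7, the kinase that phosphorylates the MCM ring, had 4.21 and 3.15 RPKM against 3.63 and 5.35 RPKM. The 4 GINS genes had a median log2 fold change of 0.05, from -0.10 (Gins4, SE 0.27, adjusted p = 0.949, limma) to 0.19 (Gins3). Gins1 had 6.26 and 4.76 RPKM against 4.56 and 6.59 RPKM, with the lowest and the highest value both in the si-SMaRT group.

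Polymerase alpha-primase, which lays down the primers, had a median log2 fold change of 0.20 over its 4 genes. Prim1, the catalytic primase subunit, was its highest gene, with 7.82 and 6.91 RPKM in the si-SCR samples and 8.31 and 11.6 RPKM in the si-SMaRT samples (log2 fold change 0.41, SE 0.28, adjusted p = 0.727, limma). Pola2, a regulatory subunit, was its lowest, with 6.25 and 5.84 RPKM against 6.29 and 4.72 RPKM (log2 fold change -0.15, SE 0.28, adjusted p = 0.927, limma). The polymerase genes for the leading and lagging strands, delta and epsilon, also had a median of 0.20 over their 5 genes among the 44. Pold4, Pole3 and Pole4, further subunits outside the 44 genes, lay below 0. Their log2 fold changes were -0.33, -0.20 and -0.15, and the groups overlapped for each. Pole, the catalytic subunit of polymerase epsilon, had 2.28 and 2.34 RPKM in the si-SCR samples and 3.76 and 3.16 RPKM in the si-SMaRT samples, without overlap (log2 fold change 0.56, SE 0.29, adjusted p = 0.604, limma). Pold2 had 15.005 and 15.9 RPKM against 17.8 and 9.80 RPKM, with the si-SMaRT samples on opposite sides of the controls (log2 fold change -0.23, SE 0.30, adjusted p = 0.882, limma). Pold1 showed the same split, with 1.74 and 2.17 RPKM against 3.59 and 1.39 RPKM.

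The clamp and its loader had a median log2 fold change of 0.14 over 6 genes. Pcna, the sliding clamp and a common marker of cycling cells, had 56.0 and 45.9 RPKM in the si-SCR samples and 47.6 and 76.4 RPKM in the si-SMaRT samples, so that si-SMaRT 1 lay within the controls. Rfc5 had the highest log2 fold change of the loader, with 3.94 and 3.94 RPKM against 5.86 and 5.01 RPKM (0.45, SE 0.28, adjusted p = 0.685, limma). Rfc2 lay in the opposite direction, with 25.3 and 21.2 RPKM against 19.0 and 16.2 RPKM, and was the member with the lowest log2 fold change (-0.40, SE 0.27, adjusted p = 0.718, limma). Of the RPA genes, whose products coat single-stranded DNA, Rpa3 had 15.03 and 12.1 RPKM against 13.6 and 29.3 RPKM, with the whole difference in si-SMaRT 2 (log2 fold change 0.56, SE 0.33, adjusted p = 0.651, limma). Rpa2 had 10.9 and 10.4 RPKM against 10.2 and 9.50 RPKM, a small gap between groups that did not overlap (log2 fold change -0.11, SE 0.27, adjusted p = 0.946, limma).

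For the joining of Okazaki fragments, Lig1, the replicative DNA ligase, had 2.89 and 3.76 RPKM in the si-SCR samples and 5.35 and 4.22 RPKM in the si-SMaRT samples (log2 fold change 0.52, SE 0.29, adjusted p = 0.638, limma). Fen1, the flap nuclease of the same step, had 17.7 and 17.4 RPKM against 20.1 and 18.4 RPKM (log2 fold change 0.13, SE 0.26, adjusted p = 0.927, limma). In nucleotide supply, Rrm2, the subunit of ribonucleotide reductase whose level follows S phase, had 39.5 and 41.6 RPKM against 54.6 and 63.8 RPKM, a gap wider than either pair (log2 fold change 0.54, SE 0.26, adjusted p = 0.561, limma). Rrm1 did not share this gap, with 62.4 and 50.9 RPKM against 50.2 and 61.5 RPKM (log2 fold change -0.02, SE 0.27, adjusted p = 0.990, limma). Tyms and Tk1, the thymidylate synthase and the thymidine kinase, had log2 fold changes of 0.26 and 0.16, with overlapping groups. Both large subunits of CAF-1, which places histones on new DNA, were higher in both si-SMaRT samples. Chaf1a had 4.18 and 4.60 RPKM against 8.73 and 4.96 RPKM (log2 fold change 0.58, SE 0.31, adjusted p = 0.606, limma). Chaf1b had 2.72 and 2.56 RPKM against 4.71 and 3.26 RPKM (log2 fold change 0.55, SE 0.30, adjusted p = 0.609, limma).

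The si-SMaRT replicates differed from each other along the GC content of the genes. Across the 44 members, the log2 ratio of si-SMaRT 2 to si-SMaRT 1 had a Spearman's rho of -0.835 and a Pearson's r of -0.873 with the GC content of the exons, and across 10551 tested genes the rho was -0.843. These points come from the same 4 libraries and are not independent. In the study's read statistics, si-SMaRT 1 lost a larger share of its read pairs to rRNA and tRNA removal than any other of the 4. The part of that loss in the GC pattern was not tested. Of the 22 members with a GC content at or below their median of 48.5%, si-SMaRT 2 lay above si-SMaRT 1 in 20, and of the 22 above it in 4. Rpa3, with the lowest GC content of 35.0%, was 2.15 times as high in si-SMaRT 2 as in si-SMaRT 1, and Pold1, with the highest of 60.2%, was 0.388 times as high. Relative to the control mean, the low-GC members had a median log2 ratio of -0.00 in si-SMaRT 1 and 0.51 in si-SMaRT 2, and the high-GC members had 0.44 and 0.09. Members of lower and of higher GC content therefore each lay above the controls mainly in 1 of the si-SMaRT samples. The log2 fold change between the groups had a rho of -0.080 with GC content across the members and of -0.313 across all genes, and the log2 ratio of si-SCR 2 to si-SCR 1 had 0.512 and 0.353.

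**Figure D3:**
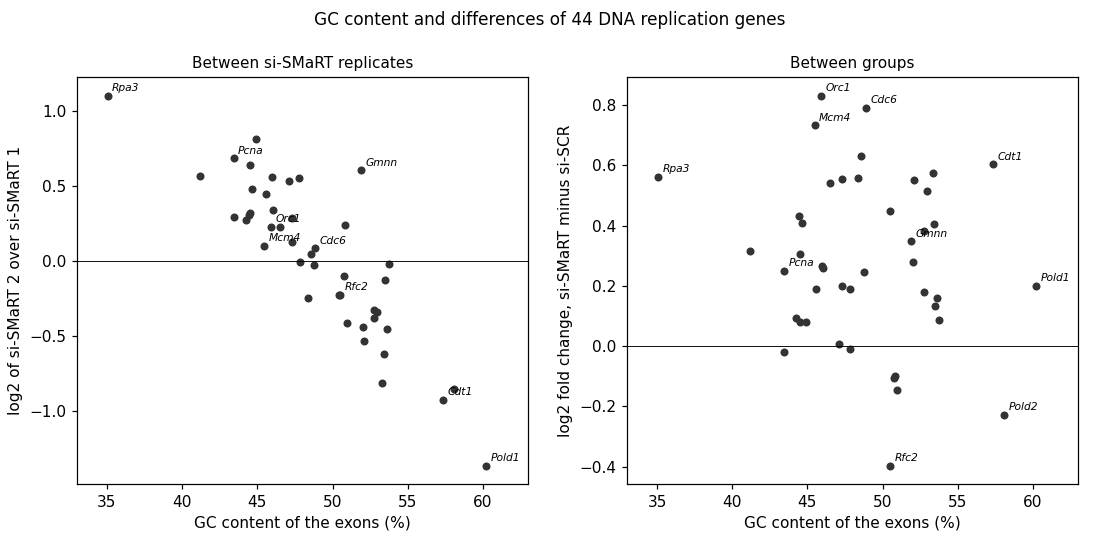
GC content of the exons (%) against the log2 ratio of the si-SMaRT replicates (left) and against the log2 fold change between groups (right), with 1 point for each of the 44 genes. The replicate ratio falls from Rpa3 at 35.0% to Pold1 at 60.2% (rho -0.835), while the fold change shows little relation with GC content (rho -0.080).

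The fit was therefore repeated on values from which each sample's dependence on GC had been subtracted. The subtraction also takes out any difference between the groups that follows GC content, and the SE does not account for it. The median log2 fold change of the 44 genes was then 0.25, and 33 lay above 0, where 49.7% of all genes did. Now 3 of the 44 members passed the threshold, near the share of all genes, which was 4.32% of 10552. The count is therefore not read as a trait of the members. All 3 were licensing genes higher in si-SMaRT. Cdc6 had a log2 fold change of 0.78 (SE 0.15, adjusted p = 0.0319, limma), Cdt1 of 0.77 (SE 0.18, adjusted p = 0.0487, limma) and Mcm4 of 0.64 (SE 0.14, adjusted p = 0.0436, limma). Orc1 had 0.75 (SE 0.26, adjusted p = 0.126, limma), and the medians by role were 0.51 for licensing, 0.65 for chromatin assembly, 0.42 for Okazaki fragment maturation, 0.32 for polymerases delta and epsilon, 0.23 for RPA, 0.23 for nucleotide supply, 0.16 for helicase activation, 0.07 for polymerase alpha-primase and 0.04 for the clamp and its loader. With 1 sample left out in turn, the log2 fold change stayed between 0.73 and 0.83 for Cdc6, between 0.64 and 0.89 for Cdt1 and between 0.53 and 0.76 for Mcm4. No member passed without si-SCR 1 or without si-SCR 2, fits in which the remaining control was assumed to vary like the si-SMaRT pair and in which 1 gene (0.00948%) and 0 genes (0%) of all passed. At an unadjusted p under 0.05 in limma, 12 members were counted without si-SCR 1, where 8.93% of all genes were, and 10 without si-SCR 2, where 19.5% were. With the replicate number as a block, no member passed in limma, where 1.82% of all genes did, and 15 members had an unadjusted p under 0.05, where 18.3% of all genes had. Without si-SMaRT 1, 4 members passed (Cdc6, Cdt1, Mcm4 and Gmnn), where 11.7% of all genes did. Without si-SMaRT 2, 9 members passed, among them Cdc6, Cdt1 and Mcm4, where 10.4% of all genes did.

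**Figure D4:**
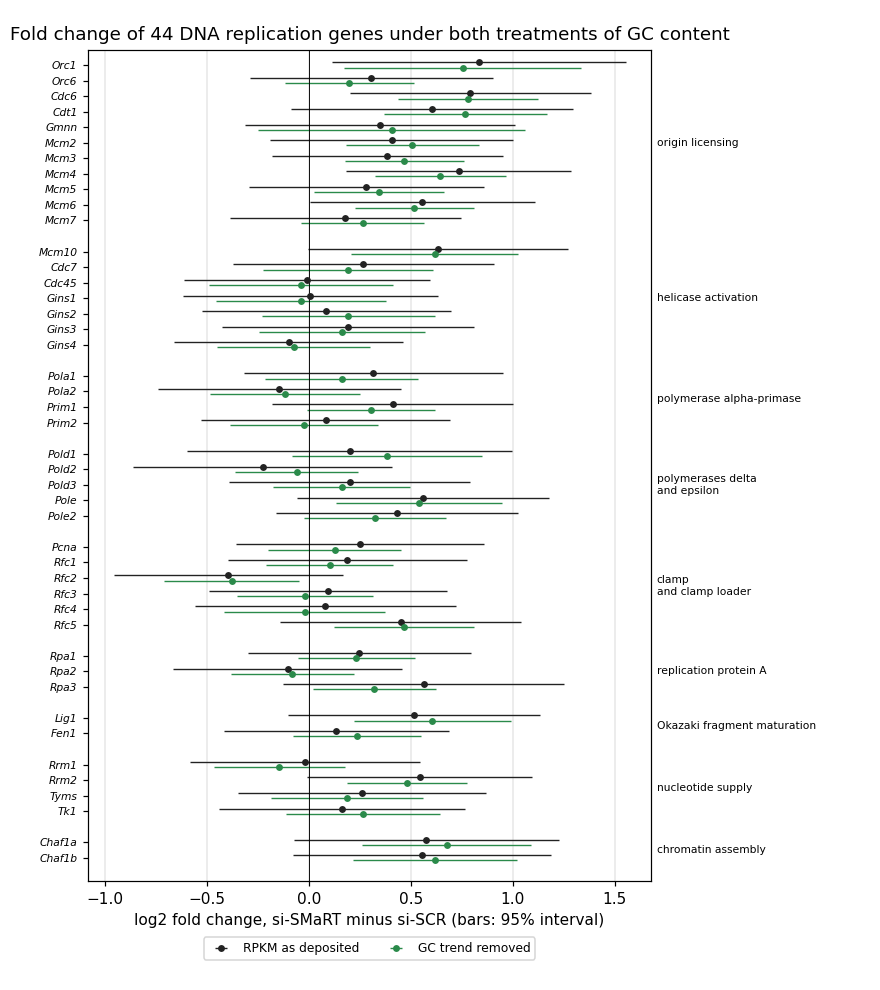
Log2 fold change between si-SMaRT and si-SCR of each gene with its 95% interval from limma, on the RPKM as deposited (black) and with the GC trend of each sample removed (green). The intervals are narrower with the trend removed, and Cdc6 (0.79 and 0.78), Cdt1 (0.60 and 0.77) and Mcm4 (0.73 and 0.64) have similar values in both fits.

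Without the removal, the calls depended on which si-SMaRT sample was kept. Without si-SMaRT 1, 14 members passed, 12 higher and 2 lower (Pold2 and Rfc2), where 26.2% of all genes passed. Without si-SMaRT 2, 7 members passed, all higher (Cdc6, Cdt1, Mcm2, Mcm4, Pold1, Chaf1a and Chaf1b), where 8.49% of all genes did. Cdc6 and Mcm4 passed in both of these fits, and in a fit with 1 si-SMaRT sample, that sample was assumed to vary like the controls. No member passed in limma without si-SCR 1, where 0.216% of all genes did, or without si-SCR 2, where 0.271% did. At an unadjusted p under 0.05, the member counts of these fits were 1, where 2.1% of all genes were counted, and 0, where 2.56% were.

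E2F cores stood in the promoters of 10 of the 36 members that the RefSeq promoter table holds. The search was for TTTCGCGC or TTTGGCGC on either strand in the 250 bases before and 50 bases after the start, and 27.8% of these members held a match in at least 1 promoter, against 0.929% of 27025 genes in the table. The members were Orc1, Cdt1, Mcm3, Mcm5, Mcm6 and Mcm7 in licensing, with Pola1, Pole2, Rfc3 and Lig1. In the sequences above, the core of Orc1 starts at position -27 from the RefSeq start. The cores of Mcm5 start at -153 and -149 and overlap, and those of Mcm6 start at -110 and -106, which overlap, and at -47. In Cdt1, Mcm3, Mcm7, Pole2 and Lig1 the core starts after the RefSeq start, at 32, 38, 16, 10 and 26. With the shorter cores TTCGCGC or TTGGCGC, which lie within the longer ones, 13 of 36 members (36.1%) held a match, against 4.47% of genes. The 10 members with the longer core had a median log2 fold change of 0.41, and in 7 of them both si-SMaRT samples lay above both controls. The 26 without it had a median of 0.25, with 11 of them above, where 20.2% of all genes were. Most of the 10 are licensing genes, whose own median was 0.41, and the part of role in this difference was not tested. A match of letters is a description and was not tested as a site of binding. Gmnn, Mcm4, Gins1, Gins2, Gins4, Prim2, Pole and Rfc2 were not searched.

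Further genes of replication and of the cell cycle were read from the same fit. Of all genes tested, 52.3% lay above 0 and 0.505% passed the threshold. After removal of the GC trend, 4.32% of 10552 genes passed. A list of 36 other replication genes held Orc2 to Orc5, Pold4, Pole3, Pole4, checkpoint and ribonuclease H2 genes, among others. Of the 36, 29 had a log2 fold change above 0 with a median of 0.26, and none passed the threshold. The median of this list was 0.44 without si-SMaRT 1, 0.15 without si-SCR 2 and 0.08 without si-SMaRT 2. Clspn, which encodes the checkpoint adaptor claspin, was highest with 1.36 and 1.40 RPKM in the si-SCR samples and 2.60 and 3.004 RPKM in the si-SMaRT samples (log2 fold change 0.97, SE 0.30, adjusted p = 0.238, limma). Rnaseh2c, a subunit of ribonuclease H2, was lowest with 8.74 and 8.61 RPKM against 5.90 and 4.32 RPKM (log2 fold change -0.77, SE 0.28, adjusted p = 0.342, limma). With the GC trend removed, 2 of the 35 genes of this list with a GC content passed, near the share of all genes. These were Clspn, higher (adjusted p = 0.0294, limma), and Rnaseh2c, lower (adjusted p = 0.0441, limma). Among 17 E2F and cyclin genes, 13 lay above 0 with a median of 0.26 and none passed. E2f7, an E2F-induced repressor, was highest with 0.649 and 0.880 RPKM against 1.55 and 1.60 RPKM, and E2f5 was lowest with a log2 fold change of -0.24. With the GC trend removed, 2 of the 17 passed, Ccne1 (0.67) and Ccne2 (0.75), the cyclins E that act at the entry into S phase. Of 25 mitosis genes, 23 lay above 0 with a median of 0.30, which was 0.18 with the GC trend removed, 0.13 without si-SCR 2 and 0.06 without si-SMaRT 2. Incenp, part of the chromosomal passenger complex, was the 1 of 25 that passed with the GC trend removed (0.81), near the share of all genes. None of the 25 passed without the removal. Bub1b, a spindle checkpoint kinase, had the lowest value of that list, with a log2 fold change of -0.08.

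No replication gene carried a peak of the pull-downs. The deposited lists hold 345 peaks for the lnc-SMaRT probes and 336 for the LacZ probes, and 0 of them overlapped by at least 1 base an exon of the 44 genes, or any part of a gene between its start and end, on the same strand. The lists are short beside the 11642 rows of expression values, and the share of all genes with a peak was not counted. A count of 0 is therefore not read as a trait of replication genes. With 1 library for each probe set and only peaks above the caller's threshold listed, lower enrichment of these transcripts could not be seen.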

How the data were processed

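Total RNA-seq of 4 samples (si-SCR 1 and 2, si-SMaRT 1 and 2) and peaks of the pull-down libraries were used. The authors trimmed the reads, removed rRNA and tRNA reads, aligned to GRCm38 with TopHat2, counted with htseq-count, normalized by TMM, removed low genes and deposited RPKM values calculated with edgeR. The p-value of each deposited peak came from Piranha in the authors' hands, with the input as covariate for LacZ. Peaks of the lnc-SMaRT probes were called against the input and against LacZ, and which of these the deposited list holds is not stated.

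Members and gene lists were chosen with earlier results of these data known. For rows whose RPKM averaged 0.5 or more, log2(RPKM + 0.1) was fitted in R 4.3.3 by limma 3.58.1, using lmFit and a trended eBayes, with Benjamini-Hochberg adjustment over all genes and a threshold of 0.05. Fold changes on this scale understate those of low genes. The deposited values are RPKM, so a count test was not the main test. Reads behind the values, worked out from their steps for 11633 of 11642 rows, gave the depth and the voom alternative (tolerance 0.001 for whole numbers). They are lower limits for 5411 rows whose factor the gene length did not fix. GC content came from GENCODE M21 exons and GRCm38.p6, and its trend was removed by loess (span 0.3). Any member may be named, and full values are given for members past the threshold, Mcm2 to Mcm7 and the highest and lowest log2 fold change of each role; in other lists, for the highest, the lowest and any past the threshold. Python 3.11.15 was used for the rest. Groups came from the sample titles, and replicate numbers are not stated to mark a shared culture. Alternatives were other pseudocounts (1 and 0.01), filters, quantile normalization, no variance trend, a replicate block, samples left out, GC removal and voom. A crossed block and the GC removal combined with the block or with samples left out were chosen after seeing the data.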

Additional observations from a re-analysis of the deposited data

How the results depend on the processing

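The number of genes past the threshold was 56 with the values as deposited, 37 with quantile normalization, 103 with voom, 456 with the GC trend removed and 24 to 2908 with 1 sample left out. No member passed under other pseudocounts, filters, quantile normalization, no variance trend or voom. Members past the threshold numbered 3 with the GC trend removed and 0 to 14 with 1 sample left out. The replicate block gave 96 genes and 0 members. Deviations of same-numbered samples had a correlation of -0.362 across genes, and of -0.196 with the GC trend removed. The crossed block, chosen after seeing the data, gave 487 genes and 0 members (lowest adjusted p 0.0599, limma). With the GC trend removed, the block left 0 members past the threshold, leaving out 1 sample gave 0 to 9, and the median of the members ranged from 0.19 to 0.34. As deposited, that median ranged from 0.17 to 0.33, that of the mitosis list from 0.059 to 0.38, that of the other replication genes from 0.083 to 0.44 and that of the E2F and cyclin list from 0.25 to 0.36. The last was 0.20 with a minimum mean RPKM of 5 and 0.30 with the GC trend removed. At that minimum 24 of 31 members tested lay above 0. With 1 sample left out, the log2 fold change of 17 of the 44 members changed sign in at least 1 fit. Among the genes with full values these were Mcm7 (-0.012 to 0.37), Gins4 (-0.23 to 0.028), Pola2 (-0.35 to 0.058), Pold2 (-0.65 to 0.20) and Rrm1 (-0.17 to 0.13). Among the others, Pold1 had the widest range (-0.45 to 0.85). Quantile normalization turned the sign of Rrm1 (0.047). The cause was not tested. Depth limited Orc1 most, the member with the fewest reads.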
